A study of Mus musculus with 7 samples.

Results

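The genes described here are the V genes of the alpha and beta chains of the T cell receptor, named Trav and Trbv in the mouse, and their use by the T cells of glioma-bearing brain. Every row of the deposited matrix with such a symbol was taken that had 10 or more UMIs (molecules counted by their barcode) over all cells the authors annotated as T cells. This gave 136 genes, 113 Trav and 23 Trbv, of 165 such rows and of 55491 gene rows in all. They were chosen by their summed UMIs in the same T cells that are compared below, so their presence in T cells is a description. The lowest members were Trav11n with 18.3, Trav13n-3 with 32.6 and Trav13-5 with 36 UMIs, and the rows just below the threshold were Trav20 and Trav23 with 7 UMIs each and Trav3-2 with 3. No Trav or Trbv UMI was counted in T cells for 22 rows, all of them annotated as pseudogenes.

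The samples were 7 mice with CT-2A glioma, a mouse glioma line placed in the brain, and 1 droplet library was made from each mouse. Live cells carrying CD45, CD11b or both were sorted from the hemisphere with the tumour, and transcripts were read from their 5′ ends, where the V segment lies. The KO group (4 mice, KO1 to KO4) carried Sall1-CreERT2 (allele B6;129-Sall1 tm5(cre/ERT2)Ryn), a tamoxifen-activated recombinase driven by a gene that marks microglia in the brain, with Siglece fl/fl (B6.129P2-Siglece tm1Bcgen), the floxed gene of a sialic acid receptor. The WT group (3 mice, WT1 to WT3) was Siglece fl/fl without the driver. Mice of both groups were 8 to 12 weeks old when the tumour was placed and received 2.5 mg of tamoxifen per injection, daily from day 7 after tumour injection and every other day from day 21. Siglece gave 2, 1, 0 and 0 UMIs in the 30, 21, 13 and 49 microglia of KO1 to KO4 and 20, 19 and 7 UMIs in the 113, 92 and 96 microglia of WT1 to WT3. Over all mice, 163 of these cells were annotated as microglia and 251 as low-quality or activated microglia, with medians of 6226 and 2222 UMIs per cell.

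Each developing T cell joins 1 V gene segment with a J segment (and a D segment in the beta chain) by DNA recombination, and the joined chains form its receptor. The V gene encodes the loops CDR1 and CDR2 and the first residues of CDR3, the loop at the junction that mostly meets the peptide. All descendants of a cell inherit its V genes, so a V gene that is frequent in 1 mouse can mark the expansion of a clone, but it does not identify one, because many clones share a V gene. Some alpha chains are tied to cell types: Trav11 is used by invariant NKT cells, Trav1 by MAIT cells, and V segments with a dv ending can also join the delta chain of gamma-delta T cells.

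The 13692 T cells were spread unevenly, from 311 in WT1 and 613 in KO1 to 3549 in KO4 and 3792 in KO3, with 2663 in KO2, 1504 in WT2 and 1260 in WT3. Of these, 8602 were annotated as CD8, 4871 as CD4 and 219 as gamma-delta T cells. The T cells of a library held 1693599 to 21820831 UMIs, and the median per T cell was 3744 to 7169. T cell markers summed to 3744.9 to 5411.3 CPM (UMIs per 1000000 UMIs) in the T cells of the 7 libraries, B cell markers to 2.7 to 13.6 CPM, NK cell markers to 87.5 to 189.1 CPM and myeloid markers to 203.8 to 710.3 CPM. Of 28178 distinct cell barcodes, 460 (1.63%) occurred in more than 1 library.

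The segments that lead in single mice differ in their germline ends. These are the last 60 bases of the spliced coding sequence of the beta segments named most often below (GENCODE M21, build GRCm38/mm10). Capitals mark the germline start of CDR3, from the codon of the conserved cysteine to the end of the segment. Bases at that end can be trimmed and others added when the segment is joined.
Trbv16: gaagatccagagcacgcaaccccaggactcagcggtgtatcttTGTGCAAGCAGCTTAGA
Trbv12-1: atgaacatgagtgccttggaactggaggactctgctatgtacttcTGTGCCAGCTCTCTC
Trbv26: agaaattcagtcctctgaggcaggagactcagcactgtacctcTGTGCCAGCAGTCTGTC
Trbv29: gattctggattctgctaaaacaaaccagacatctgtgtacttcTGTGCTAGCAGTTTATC
Trbv15: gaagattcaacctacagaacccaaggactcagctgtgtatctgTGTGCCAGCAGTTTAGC
Trbv13-1: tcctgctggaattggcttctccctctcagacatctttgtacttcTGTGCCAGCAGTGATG
Trbv5: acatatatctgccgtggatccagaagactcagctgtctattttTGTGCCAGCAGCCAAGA
All lie on the plus strand of chromosome 6: Trbv5 at 6:41062332-41062803, Trbv12-1 at 6:41113550-41114067, Trbv13-1 at 6:41116007-41116468, Trbv15 at 6:41141188-41141658, Trbv16 at 6:41151740-41152230, Trbv26 at 6:41227505-41227993 and Trbv29 at 6:41271394-41271881. The median identity between the coding sequences of 2 Trbv members was 56.8%, and the closest pair, Trbv13-2 and Trbv13-3, was 90.6% identical. Correspondingly, 2.5% of the Trbv UMIs in T cells had values that were not whole numbers (more than 1e-06 from one).

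Among the alpha segments the partners of these beta segments ended as follows, with the same use of capitals, on the plus strand of chromosome 14.
Trav3-3: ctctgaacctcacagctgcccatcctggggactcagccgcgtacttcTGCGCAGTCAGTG
Trav7-2: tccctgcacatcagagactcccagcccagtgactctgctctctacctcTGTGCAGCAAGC
Trav12-2: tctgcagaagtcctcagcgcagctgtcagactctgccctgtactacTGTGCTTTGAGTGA
Trav12-3: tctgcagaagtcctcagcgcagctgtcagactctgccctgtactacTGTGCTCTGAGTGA
Trav9-2: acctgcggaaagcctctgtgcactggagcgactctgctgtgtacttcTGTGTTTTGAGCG
Trav9n-3: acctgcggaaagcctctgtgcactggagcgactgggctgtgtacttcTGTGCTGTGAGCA
Trav3-3 lies at 14:53665929-53666506, Trav7-2 at 14:53390635-53391142, Trav12-2 at 14:53616315-53616914, Trav12-3 at 14:53621657-53622245, Trav9-2 at 14:53590857-53591514 and Trav9n-3 at 14:53231433-53232102.

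The Trav locus holds duplicated blocks, and 101 of the 113 Trav members have a copy whose symbol differs by a d or an n after the family number. Copies were grouped by symbol, not by sequence. Coding sequences of 35 such copy groups could be compared in 83 pairs: their median identity was 97.58%, the lowest 88.06%, and 15 pairs were identical. The Trav14-1 group, which stands out in CD4 T cells below, shows both cases. Here are bases 50 to 149 of its coding sequences, with the positions at which the 3 copies differ in capitals.
Trav14-1: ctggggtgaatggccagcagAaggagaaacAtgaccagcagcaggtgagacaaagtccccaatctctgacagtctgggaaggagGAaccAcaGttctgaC
Trav14d-1: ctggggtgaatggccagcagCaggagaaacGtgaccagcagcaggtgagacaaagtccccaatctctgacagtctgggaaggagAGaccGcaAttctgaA
Trav14n-1: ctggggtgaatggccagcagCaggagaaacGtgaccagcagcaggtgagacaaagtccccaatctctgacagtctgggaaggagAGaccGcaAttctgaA
Over all 364 coding bases, Trav14-1 differed from the others at 16 positions, and Trav14d-1 and Trav14n-1 at none. In the counts, 0.3% of the Trav14-1 UMIs had values that were not whole, against 53.6% for each of the identical copies, whose values were the same in every fit. Over all members with an identical copy the median share of such UMIs was 54.8%, and over members with a copy that is not identical 12.1%. Of the 15 identical pairs, 14 had equal UMIs in each of the 7 mice, compared after rounding to 0.1 UMI, so that their rows carry 1 measurement. The exception was Trav12d-3 and Trav12n-3, with 330.3 and 480.0 UMIs. Below, usage and pairs are therefore given with copies joined under the name without d or n, and rows are named singly only where a test across all gene rows was made.

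V gene UMIs marked T cells of the alpha-beta lineage. After each cell was thinned to 2000 UMIs, 82.8% of Tregs and 86.0% of Th1 cells had a Trav UMI, and 66.9% of naive or early activated CD8 T cells did. In B cells 1.57% had a Trav UMI and 1.97% a Trbv UMI, and in macrophages (P5) 1.65% and 1.41%; without thinning, B cells had 6.31% and 5.48%. Median depths before thinning were 5088 UMIs in Th1 cells, 3376.5 in Tregs, 7302 in B cells and 6437 in macrophages (P5). Shares at this level in B cells and macrophages, which rearrange no T cell receptor gene, were taken as the background, and its source was not tested. Gamma-delta T cells, annotated in 219 cells with a median of 2893 UMIs, lay between, with 15.6% having a Trav and 21.5% a Trbv UMI after thinning.

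Outside the T cell and NK cell annotations, the first Trbv segment was also the first of the T cells in KO2, KO4, WT2 and WT3, and another one in KO1, KO3 and WT1. In WT3, Trbv15 made up 43.0% of the Trbv UMIs outside T and NK cells and 42.6% of those in T cells. In KO4, Trbv26 made up 21.7% outside T and NK cells and 37.2% in T cells.

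Usage, the percent of the Trav or Trbv UMIs of a mouse that a gene holds, was dominated by different genes in different mice. Trbv26 held 37.2% of the Trbv UMIs of all T cells in KO4, against 6.22%, 7.90% and 6.33% in KO1 to KO3 and 7.58%, 2.86% and 0.54% in WT1 to WT3. KO4 stood apart from the other 6 mice. Trbv15 held 42.6% in WT3, against 11.9% in WT1, 10.7% in WT2 and 8.52%, 2.79%, 4.61% and 4.28% in KO1 to KO4. Here the high mouse was WT3, and the 3 WT mice lay above the 4 KO mice.

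Other beta segments were high in several mice. Trbv16 held 19.99%, 4.75%, 19.1% and 2.79% in KO1 to KO4 and 15.4%, 6.38% and 3.29% in WT1 to WT3, so it was high in KO1, KO3 and WT1 and the groups overlapped. Trbv13-2 was highest in KO2 with 23.9%, and lay between 3.42% and 12.7% in the other mice. Trbv13-1, the segment with the most UMIs in all (10834), ranged only from 7.75% in KO4 to 22.7% in KO1, with 15.6 ± 6.96% in KO (mean ± SD, n = 4) and 16.1 ± 5.58% in WT (n = 3). Of the other beta segments among the 10 with the most UMIs, Trbv5 ranged from 0.62% in KO2 to 16.9% in WT3, Trbv3 from 0.97% in WT3 to 8.69% in KO2, Trbv20 from 0.78% in KO4 to 6.54% in KO3, Trbv1 from 1.91% in WT3 to 9.08% in KO2 and Trbv12-2 from 0.62% in WT3 to 6.77% in KO2.

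The highest shares were those of CD8 T cells. Within them, Trbv26 held 51.1% of the Trbv UMIs in KO4 and at most 9.07% in another mouse, Trbv15 held 54.8% in WT3 and at most 16.7% elsewhere, Trbv16 held 32.7% in KO1 and Trbv13-2 30.2% in KO2. Trbv16 was also first in the CD8 T cells of KO3 (22.8%) and Trbv13-2 in those of WT2 (12.5%), and in WT1 it was Trbv13-1 (23.7%). In CD4 T cells Trbv13-1 led in 5 mice with 34.4% (KO1), 27.1% (KO2), 19.97% (KO3), 27.9% (WT2) and 23.3% (WT3), and Trbv13-2 led in KO4 with 15.9% and in WT1 with 15.5%. Trbv13-1 itself ranged from 6.08% (WT1) to 34.4% in CD4 and from 4.58% to 23.7% in CD8 T cells.

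**Figure D1:**
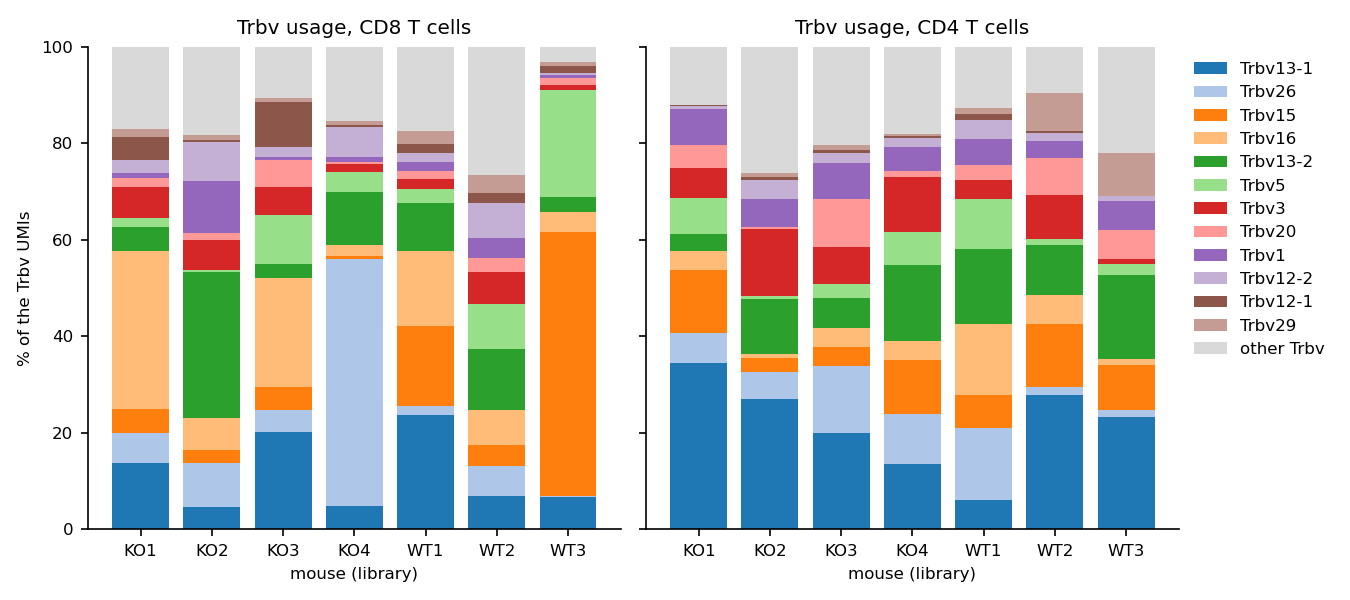
Trbv usage by mouse in CD8 T cells (left) and CD4 T cells (right), as the percent of the Trbv UMIs of each mouse; colours are the 10 segments with the most UMIs, with Trbv12-1 and Trbv29 added. In CD8 T cells Trbv26 fills 51.1% of KO4 and Trbv15 54.8% of WT3, while no Trbv segment of the CD4 T cells exceeds 34.4%.

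Alpha segments were skewed in the same mice, with copies joined. Trav9-2 held 20.6% of the Trav UMIs of WT3 and 0.41% to 1.44% in the other 6 mice. Trav7-2 held 21.5% in KO3 and 12.3% in WT2, against 2.53% to 5.60% in the other 5. Trav12-2 held 19.4% in KO4, 9.31% in KO2 and 8.63% in KO1, and 1.02% in KO3, 1.97% in WT1, 1.74% in WT2 and 0.90% in WT3.

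Trav3-3 led in KO1 with 17.1% and was second in WT3 with 10.8%, and Trav7-5 led in WT1 with 11.7%. Trav10 held 10.2% in KO3 and 5.81% in KO2 and at most 2.44% elsewhere, Trav21 held 7.17% in KO3 and at most 0.72% elsewhere, and Trav12-3 held 10.1% in KO4 and at most 6.66% in another mouse. In CD8 T cells, Trav9-2 reached 32.9% in WT3, Trav3-3 30.6% in KO1, Trav12-2 29.3% in KO4 and Trav7-2 25.7% in KO3. The first alpha segment of the CD4 T cells differed in each mouse but KO4 and WT2, where Trav14-3 led with 16.5% and 12.2%; it was Trav6-7 in KO1 with 21.8%, Trav14-1 in KO2 with 12.9%, Trav4-3 in KO3 with 14.8%, Trav6-5 in WT1 with 10.8% and Trav3-3 in WT3 with 11.2%.

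The skewed alpha and beta segments were found in the same cells. A cell was given a V gene where 1 gene had 2 or more UMIs and at least 2 of every 3 UMIs of that chain. The shares below are of the T cells of a mouse with such a call for both chains. A pair of V genes is not a clone, because the junctions (CDR3) were not read. In WT3, 160 of 564 such cells (28.4%, exact 95% binomial interval 24.7% to 32.3%) paired Trav9-2 with Trbv15, against 3 of 5379 cells (0.056%) in the other mice. In KO4, 329 of 1450 cells (22.7%, interval 20.6% to 24.9%) paired Trav12-2 with Trbv26, against 1 of 4493 cells (0.022%) elsewhere. A further 235 cells of KO4 (16.2%) paired the same Trbv26 with Trav12-3, against 22 of 4493 (0.49%) elsewhere. The intervals cover counting error within the library only.

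The leading pairs of KO1 to KO3 were less frequent. In KO3, Trav7-2 with Trbv12-1 was found in 287 of 1986 cells (14.4%, interval 12.9% to 16.1%) and in 3 of 3957 (0.076%) elsewhere. In KO1 it was Trav3-3 with Trbv16 in 49 of 304 cells (16.1%, interval 12.2% to 20.7%), against 14 of 5639 (0.248%) elsewhere. In KO2 it was Trav14-1 with Trbv13-1 in 82 of 952 cells (8.61%, interval 6.91% to 10.6%), against 12 of 4991 (0.24%) elsewhere. Where a cell counted for a pair with 2 or more UMIs of both genes whatever else it held, a count added after the data were seen, another pair led in KO2: Trav12-2 with Trbv13-2 in 158 of 1380 cells (11.45%), above 7.97% for Trav14-1 with Trbv13-1. By the first count that other pair made up 7.56%, and 79.2% of its cells were CD8. By the first count, each was more frequent in its own mouse than pooled over the others, where no leading pair passed 0.512%; the pairs were chosen for being frequent, so no test was made.

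WT2 differed in the cell type. Its leading pair, Trav9-3 with Trbv29, was found in 64 of 601 cells (10.6%, interval 8.30% to 13.4%) and in 0 of 5342 elsewhere, which allows a share of up to 0.0562%. Of these 64 cells, 50 were Tregs, the CD4 cells marked by Foxp3 that restrain other T cells, and 11 were in the annotation of proliferating CD4 T cells and Tregs. The pair made up 50 of the 102 Tregs of WT2 with both calls (49.0%). WT1 had 86 cells with both calls, and its leading pair, Trav7-5 with Trbv13-1, was found in 7 of them (8.14%, interval 3.34% to 16.1%) and in 30 of 5857 (0.512%) elsewhere, with 2.66% in WT2.

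The leading pairs of 5 mice were pairs of CD8 or CD4 T cells almost alone. All 160 cells of the WT3 pair were CD8 T cells, as were 98.6% of those of KO3, 98.0% of KO1, 96.7% of KO4 and 85.7% of WT1. The pair of KO2 was 82.9% CD4 and that of WT2 100% CD4. By annotation, the WT3 pair made up 34 of 57 exhausted CD8 T cells (59.6%) and 46.7% of the precursor-exhausted ones, cells that carry inhibitory receptors and that renew the exhausted cells, and 2 of 21 (9.52%) naive or early activated ones. The KO4 pair made up 31.8% of exhausted, 34.8% of precursor-exhausted and 2.63% of naive or early activated CD8 T cells.

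In KO1 and KO3, too, naive or early activated cells had the lowest share of the 3 annotations. The KO1 pair made up 5 of 25 exhausted (20%) and 33.7% of precursor-exhausted CD8 T cells and was not found among 33 naive or early activated ones. The KO3 pair made up 17.4%, 17.0% and 10.1% of the same annotations. The pair of Trav14-1 and Trbv13-1 made up, in KO2, 30.1% of the Tfh and 25% of the Th1 cells, the helper cells of B cells and of macrophages, 4 of 21 naive or early activated CD4 T cells (19.05%) and 1.82% of the Tregs.

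Sharing was also measured without choosing a pair, as the percent of all pairs of cells of 1 mouse and annotation that carried both the same Trav and the same Trbv gene. Among naive or early activated CD8 T cells it was 0.38%, 0.58%, 3.84% and 0.60% in KO1 to KO4 and 2.37%, 0.84% and 0.48% in WT1 to WT3. Among precursor-exhausted CD8 T cells it was 14.7%, 5.19%, 7.48% and 19.5% in KO1 to KO4 and 8.37% and 23.2% in WT2 and WT3; WT1 had 13 cells with both calls and was not computed, since 20 were required. In each of the 6 mice with both values the precursor-exhausted cells were the higher, by a margin that left no overlap between the annotations, and the genotypes overlapped within each.

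Exhausted CD8 T cells shared 6.0%, 5.34%, 7.07% and 16.6% in KO1 to KO4 and 36.0% in WT3. In Th1 cells the values were 13.0%, 9.25%, 5.93% and 5.19% in KO1 to KO4 and 5.71% and 8.60% in WT2 and WT3, and in naive or early activated CD4 T cells 3.33%, 2.32% and 0.36% in KO2 to KO4 and 0.38% in WT2. Tregs shared 3.43%, 1.79% and 2.32% in KO2 to KO4 and 24.8% in WT2. Depth moved with the annotation: the median was 3432 UMIs per cell in naive or early activated and 5568.5 in precursor-exhausted CD8 T cells, and its part in the difference was not tested. The authors' annotations are clusters, and whether V genes entered the clustering is not given in the sources used here.

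**Figure D2:**
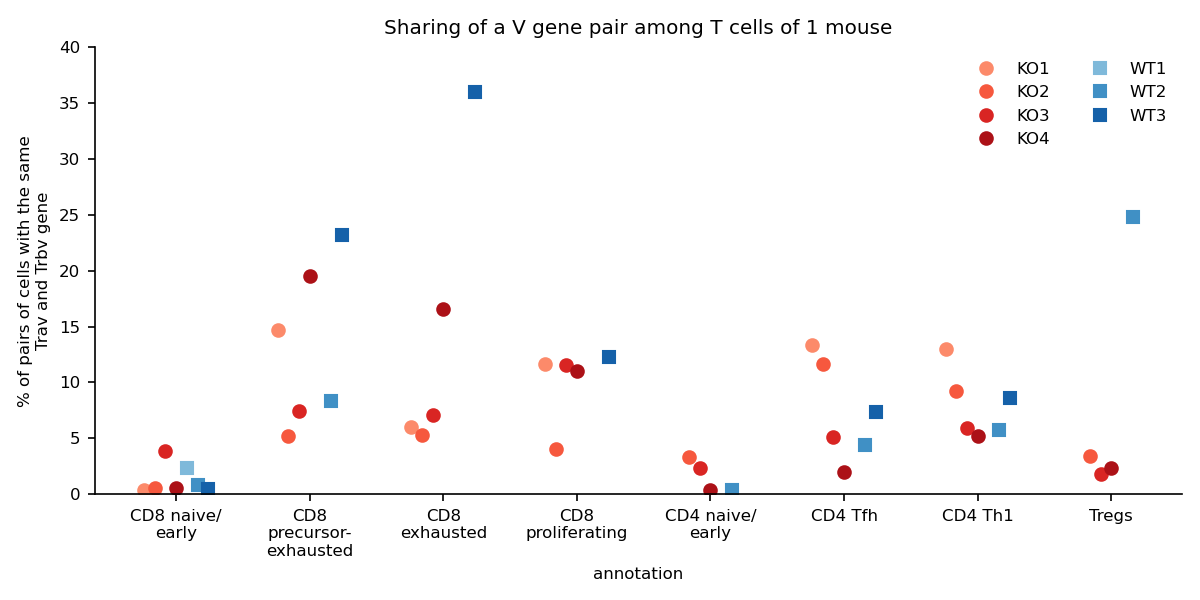
Percent of pairs of cells of 1 mouse that carry the same Trav and Trbv gene (y axis) by annotation (x axis); circles are KO and squares WT mice, and a mouse with fewer than 20 cells with both calls is not drawn. Naive or early activated CD8 T cells sit between 0.38% and 3.84%, precursor-exhausted ones between 5.19% and 23.2%.

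V genes were compared between genotypes with edgeR's quasi-likelihood test on UMIs summed per mouse, with Benjamini-Hochberg adjustment over all genes tested. In all T cells no member passed an adjusted p of 0.05 (0 of 119 tested; 0% of the 13044 genes tested passed). At an unadjusted p under 0.05, 8 members (6.72%) and 6.56% of all genes lay below. DESeq2 called 2 members, Trbv29 lower in KO (log2 fold change -2.31, adjusted p = 4.68e-05) and Trbv23 higher (3.49, adjusted p = 0.0458), where it called 0.243% of genes. Leaving out single mice gave 0 members in edgeR. In such sums, fewer cells using a segment and less RNA per cell cannot be told apart. In CD8 T cells 0 of 106 and in CD4 T cells 0 of 100 members passed (0% of 11838 and of 11597 genes), with 9 (8.49%) and 8 (8%) at an unadjusted p under 0.05, against 4.92% and 5.45% of all genes. The smallest p among members belonged to Trav17 in CD8 T cells (log2 fold change -2.68, edgeR adjusted p = 0.896) and to Trbv29 in CD4 T cells (-3.43, adjusted p = 0.862). DESeq2 called 0.0977% and 0.0202% of genes there, and 0 of the members. The spread between mice described above enters this test: the KO over WT log2 fold change of Trav12-2 in all T cells was 3.48, and its adjusted p 0.721.

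Trbv29 had the smallest p among the members in all T cells. Its usage was 1.04%, 0.81%, 0.85% and 0.69% in KO1 to KO4 and 1.97%, 6.68% and 2.94% in WT1 to WT3, without overlap, and its log2 fold change was -2.34 (unadjusted p = 0.00056, adjusted p = 0.664). In WT2 it was the beta segment of the Treg pair described above. In WT3, 27 of 564 cells with both calls (4.79%) paired Trbv29 with Trav13-1, and 96.3% of these were CD4 T cells. Elsewhere that pair was found in 0 of 5379 cells, which allows a share of up to 0.0558%. The CPM ranges of KO and WT were apart for 5 of 119 members in all T cells, against 7.28% of all genes tested. In CPM, Trbv23 and Trbv26 were above WT in each KO mouse, and Trbv13-3, Trbv15 and Trbv29 were below (4.25% of all genes were below). As usage, Trbv26 overlapped between the groups, with 7.58% in WT1 above 6.22% in KO1 and 6.33% in KO3. The CPM ranges were apart for 8 of 106 members in CD8 T cells, against 6.29% of genes. Of these, 7 were below WT in each KO mouse, where 2.7% of all genes were: Trav5-1, Trav9n-4, Trav9-2, Trav3-4, Trav17 and the identical copies Trav4d-3 and Trav4n-3. In CD4 T cells the ranges were apart for 4 of 100 members, 3 above and 1 below, against 6.82% of genes in either direction and 3.33% below.

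Whether the genotype difference itself differed between CD8 and CD4 T cells was tested as an interaction in the same cells, with 1 term per mouse. It passed for 0 of 128 members (0% of 12697 genes), with 22 members (17.2%) and 5.65% of all genes at an unadjusted p under 0.05. Trbv30 came closest (adjusted p = 0.0855), at 0.00, 0.00, 0.00 and 0.15 CPM in CD8 T cells of KO1 to KO4 and 0.00, 5.65 and 0.38 CPM in WT1 to WT3, against 0.00, 0.00, 1.24, 10.09, 0.00, 1.93 and 0.00 CPM in CD4 T cells. With most values at or near 0, in 26 T cells in all, its fitted fold change gives no size and is not printed. Leaving out KO1, KO2 or WT3 brought Trbv30 to an adjusted p of 0.0395, 0.0489 or 0.049, and 3 of 125, 2 of 121 and 2 of 128 members passed in those fits, against 0.0313%, 0.0244% and 0.0871% of all genes.

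The genotypes overlapped in how even the usage was. The most used Trbv held 26.0 ± 7.65% of the Trbv UMIs in KO (n = 4) and 26.7 ± 14.2% in WT (n = 3). The percent of pairs of cells sharing a Trbv was 9.08%, 12.6%, 11.4% and 19.4% in KO1 to KO4 and 8.36%, 8.34% and 14.7% in WT1 to WT3, and the percent sharing a Trav was 8.62%, 5.10%, 12.0% and 10.4% against 3.54%, 6.09% and 12.0%. With Trav copies not joined, the percent sharing a Trav was 3.09%, 6.26%, 9.54% and 13.3% in KO1 to KO4 and 2.13%, 6.46% and 21.4% in WT1 to WT3. KO1 so moved from the middle to near the lowest. WT3 was the highest either way, with copies joined only just (12.03% against 11.99% in KO3). The groups overlapped in each of these measures. WT1, with the fewest T cells, was the lowest for Trav.

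Between CD8 and CD4 T cells of the same mice, 26 of 128 members differed in edgeR with 1 term per mouse, 11 higher in CD8 and 15 higher in CD4; 30% of all genes tested passed, so the members' 20.3% lay below the background. The members' median log2 fold change, CD8 over CD4, was -0.36 and that of all genes -0.0. At an unadjusted p under 0.05 there were 39 members (30.5%) against 39.3% of all genes. With copies joined, 7 of 71 V genes passed, 6 Trav and 1 Trbv, against 30.4% of all genes in that fit. The annotations were used as the authors gave them; when lineage was taken from Cd8a, Cd8b1 and Cd4 UMIs of each cell instead, 17 of 114 members passed, against 30.9% of all genes.

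Trav14-1 was the clearest CD4 segment. Its level in CD4 T cells was 0.48, 7.37, 7.72 and 13.64 CPM in KO1 to KO4 and 7.65, 6.02 and 4.93 CPM in WT1 to WT3, against 0.32, 0.57, 0.30, 0.46, 2.77, 2.17 and 0.00 CPM in CD8 T cells of the same mice. It was lower in CD8 T cells in 7 of 7 mice (log2 fold change -3.79, SE 0.44, edgeR adjusted p = 1.67e-05), and passed in all 13 alternatives. In KO1 both levels lay below that of 3 UMIs (1.5 CPM in CD4 and 0.9 CPM in CD8 T cells), so the direction in KO1 carries little weight. The identical copies Trav14d-1 and Trav14n-1 were lower too (-2.48, SE 0.38, adjusted p = 0.00118), with 73.22 CPM in CD4 T cells of KO2, where the leading pair uses this group, 3.62 to 15.35 CPM in those of the other mice, and 13.35 CPM in CD8 T cells of KO2.

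Further alpha segments with higher levels in CD4 T cells were Trav5d-4 and Trav5n-4 (-2.57, adjusted p = 0.00649, lower in CD8 in 7 of 7 mice), Trav8-2 (-2.57, adjusted p = 0.00153, 7 of 7 mice) and Trav7-4 (-2.14, adjusted p = 0.00844, 6 of 7 mice). Trav4d-4 and Trav4n-4 (-1.66, adjusted p = 0.0268), Trav4d-3 and Trav4n-3 (-3.59, adjusted p = 0.0369), Trav4-2 (-1.40, adjusted p = 0.0446), Trav6d-5 (-2.21, adjusted p = 0.022), Trav9d-1 (-1.57, adjusted p = 0.0221) and Trav13-2 (-0.70, adjusted p = 0.0175) also passed. With copies joined, the Trav14-1 (-2.64, adjusted p = 0.00332), Trav7-4 (-1.94, adjusted p = 0.0281) and Trav4-4 groups (-1.30, adjusted p = 0.0313) passed, and the other 7 groups named here did not. Their values were 0.06 for Trav8-2 and 0.12 for Trav4-2, both turned in sign, -1.32 for Trav5-4, -1.79 for Trav4-3, -1.52 for Trav6-5, -0.51 for Trav9-1 and -1.42 for Trav13-2, with adjusted p of 0.145 to 0.978.

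Higher in CD8 T cells were members of the Trav15 group. Its dv endings mark possible use by the delta chain as well, though Trav15n-1 and Trav15n-2 have none. All 10 members with a dv ending together held 9.14% of the Trav UMIs of CD8 and 9.22% of those of CD4 T cells. Trav15-2-dv6-2 stood at 2.53, 4.14, 1.75 and 1.97 CPM in CD8 T cells of KO1 to KO4 and at 0.00, 2.61 and 3.43 CPM in WT1 to WT3, against 0.16, 0.27, 0.00, 0.00, 0.00, 0.00 and 0.99 CPM in CD4 T cells. It was higher in 6 of 7 mice, WT1 being at 0 in both (log2 fold change 3.83, SE 0.56, edgeR adjusted p = 7.43e-05). Trav15d-2-dv6d-2 and Trav15n-2 (2.19, adjusted p = 0.0115), Trav15n-1 (2.36, adjusted p = 0.0244), Trav15d-1-dv6d-1 (1.74, adjusted p = 0.0404) and Trav15-1-dv6-1 (1.49, adjusted p = 0.0331) were higher too. Trav15d-2-dv6d-2 and Trav15n-2 lost the call without KO4 (adjusted p = 0.097), and Trav15n-1, Trav15d-1-dv6d-1 and Trav15-1-dv6-1 in at least 3 alternatives each, with adjusted p up to 0.0772, 0.12 and 0.104. All 6 members of the group passed in the test itself, and they made up 1.06% of the Trav UMIs of CD8 and 0.24% of those of CD4 T cells. The delta and gamma constant genes moved with them: Trdc was higher in CD8 T cells by a log2 fold change of 1.80 (adjusted p = 0.0115) and Trgc2 by 3.33 (adjusted p = 0.000195). The part of cells with a delta chain in the Trav15 result was not tested.

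Trav11 and Trav11d, the alpha segments of invariant NKT cells, were higher in CD8 T cells by 1.46 (SE 0.38, adjusted p = 0.00723) and 1.41 (adjusted p = 0.00895) on the log2 scale, in 6 of 7 mice. Their level was low: Trav11 ranged from 0.53 to 3.81 CPM in CD8 and from 0.25 to 2.30 CPM in CD4 T cells. Only 23 T cells were called as using the Trav11 group, 11 of them in naive or early activated CD8 T cells. Of these 23 cells, 11 had a beta call, and 4 of those were Trbv13-2, a usual partner of the invariant chain. Trbv29 and Trbv1, also looked for as partners, were called in 0 of them. Zbtb16, the transcription factor of NKT cells, had a UMI in 3 of the 23 cells (13.0%) and in 192 of 13669 other T cells (1.4%). Between CD8 and CD4 T cells as a whole, Zbtb16 did not pass (log2 fold change 0.08, edgeR adjusted p = 0.916).

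Trbv12-1 was the only beta segment that passed, higher in CD8 T cells by 2.50 (SE 0.70, adjusted p = 0.0387) in 6 of 7 mice. In CD8 T cells it stood at 42.66, 4.84, 92.79 and 3.48 CPM in KO1 to KO4 and at 17.99, 18.25 and 20.98 CPM in WT1 to WT3, and in CD4 T cells at 0.33 to 10.72 CPM. KO3, where it belongs to the leading pair, was the highest. The call was lost when KO1, KO3, WT1, WT2 or WT3 was left out and when no filter on low counts was used (adjusted p up to 0.148). Trav12n-3 was higher in CD8 T cells by 1.33 (adjusted p = 0.00509), but not with copies joined (0.11, adjusted p = 0.957), and Trav7n-6 by 1.21 (adjusted p = 0.0468), likewise not with copies joined (-0.04, adjusted p = 0.969).

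**Figure D3:**
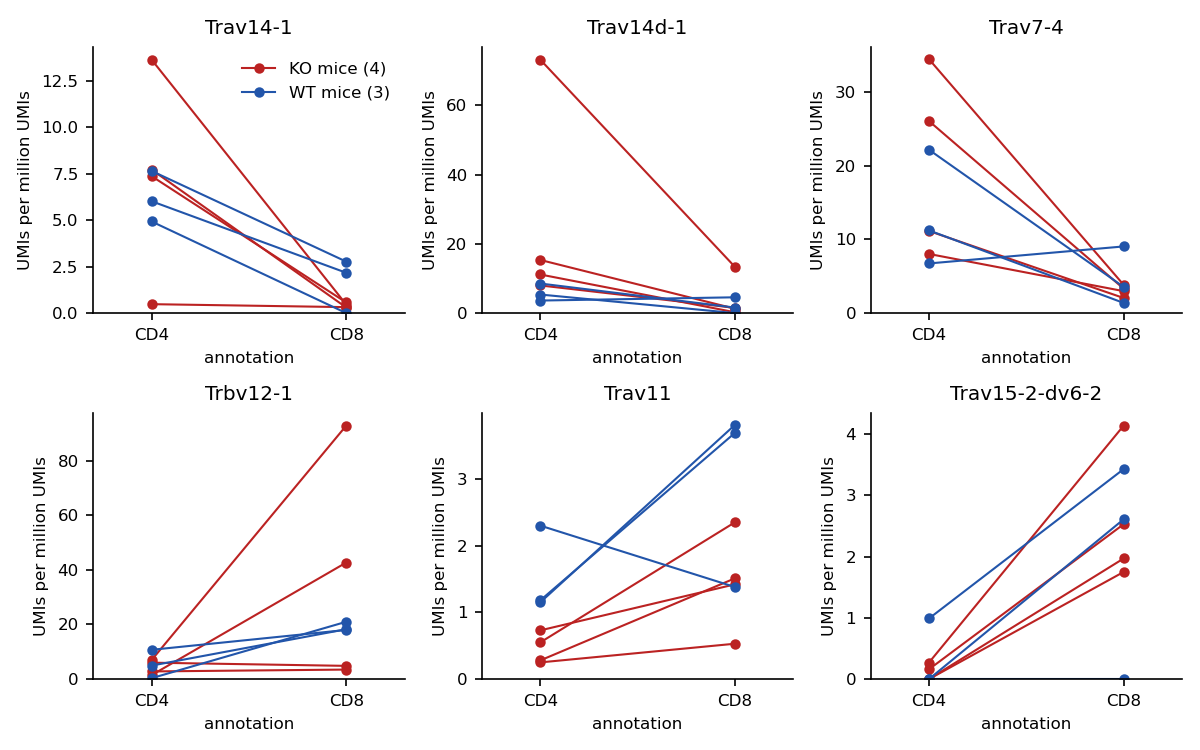
Level (UMIs per 1000000 UMIs, y axis) of 6 segments in CD4 and CD8 T cells (x axis), each line 1 mouse, red KO and blue WT. Trav14-1 falls from CD4 to CD8 in 7 of 7 mice, though in KO1 both levels lie below that of 3 UMIs. Trbv12-1 rises in 6 of 7, with KO3 highest at 92.79 CPM.

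Of the receptor's partner genes, 28 of a list of 32 were tested between CD8 and CD4 T cells, where 12 were higher and 11 lower in CD8, against 14.1% and 15.9% of all genes (median log2 fold change 0.06). Cd8a and Cd8b1 were higher by 3.42 and 3.41, and Cd4 lower (-3.63), as the lineages are defined. Trbc1, 1 of the constant genes of the beta chain, was higher by 0.58 (adjusted p = 0.0282), and Trac, that of the alpha chain, lower (-0.23, adjusted p = 0.0288). Cd5, which dampens receptor signals, was lower (-1.45, adjusted p = 2.45e-07), as was the early response gene Nr4a1 (-1.005, adjusted p = 2.84e-08). Between genotypes, 0 of the partner genes passed an adjusted p of 0.05 in edgeR in all T cells, CD8 or CD4 T cells.

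Trbv13-1, the leading beta segment of CD4 T cells, was lower in Tregs than in the other CD4 T cells of the same mice. In the test with 1 term per mouse, 20 of 94 members passed, 8 higher and 12 lower in Tregs (26.4% of the 10085 genes tested passed); WT1, with 5 Tregs, was left out, so 6 mice entered. The other CD4 T cells are the 3399 naive or early activated, Tfh and Th1 cells, and the 414 cells of the annotation that joins proliferating CD4 T cells and Tregs were left out. By share of cells with a Trbv call, Trbv13-1 led the Th1 cells of these 6 mice, from 20.72% in KO4 to 44.0% in KO1. Among naive or early activated CD4 T cells it led in WT2 only, with 13.95%. Tregs were not compared with those cells alone. Of 22 Trbv members 6 passed (27.3%, near the share of all genes), and these were lower in Tregs, where 12.6% of all genes were. The median log2 fold change of the tested Trbv was -1.13, that of the tested Trav 0.12 and that of all genes -0.01. Without the mouse term, which pairs cells of 1 animal, 3 of 47 members passed, against 18.6% of all genes.

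Trbv13-1 stood at 547.65, 337.38, 248.06 and 176.02 CPM in the other CD4 T cells of KO1 to KO4 and at 474.85 and 289.05 CPM in WT2 and WT3, against 0.00, 18.77, 63.68, 24.62, 10.88 and 10.63 CPM in Tregs of the same mice. The ranges did not overlap, and Tregs were lower in 6 of 6 mice (log2 fold change -3.84, SE 0.52, edgeR adjusted p = 0.00369). As usage, it held 15.4% to 41.7% of the Trbv UMIs of the other CD4 T cells and 0.00% to 8.04% of those of Tregs in these mice. It passed in all 11 alternatives.

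Other beta segments with a lower level in Tregs, as UMIs among all UMIs, were Trbv5 (-1.07, adjusted p = 0.00337, 6 of 6 mice), Trbv12-2 (-1.51, adjusted p = 0.0222, 6 of 6), Trbv12-1 (-1.72, adjusted p = 0.0239, 5 of 6), Trbv15 (-1.59, adjusted p = 0.0289, 6 of 6) and Trbv31 (-1.95, adjusted p = 0.0345, 5 of 6). Trbv15 lost its call when KO2, KO3, KO4 or WT2 was left out, Trbv31 when KO4, WT2 or WT3 was, and Trbv12-2 when KO2 was. Trbv12-1 lost its call with DESeq2 (adjusted p = 0.307), and its level in Tregs was low, 0.00 to 4.69 CPM. As usage, a share of the Trbv UMIs, only Trbv15 of these 5 was lower in Tregs in 6 of 6 mice. Trbv5 usage was higher in Tregs in 4 of 6 mice (6.25%, 2.56%, 7.43% and 2.80% in KO1, KO3, KO4 and WT3 against 5.30%, 2.43%, 6.42% and 2.04%), Trbv12-2 usage in 3, Trbv31 usage in 2 and Trbv12-1 usage in 1. Trbv1 showed the opposite direction without passing: it stood at 37.95, 145.44, 248.92, 80.44, 75.20 and 138.17 CPM in Tregs of KO1 to KO4, WT2 and WT3 and at 91.53, 29.73, 59.14, 46.96, 38.31 and 28.63 CPM in the other CD4 T cells (1.29, adjusted p = 0.102). KO1 was the only mouse of the 6 in which it was lower in Tregs.

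The beta chain was also lower as a whole. Summed Trbv UMIs stood at 556.5, 699.8, 792.1 and 618.0 CPM in Tregs of KO1 to KO4 and 694.6 and 506.6 CPM in WT2 and WT3, against 1314.0, 1084.8, 1145.2, 1142.0, 1372.6 and 1123.3 CPM in the other CD4 T cells, ratios of 0.42 to 0.69. Without Trbv13-1 the ratios were 0.73, 0.91, 0.81 and 0.61 in KO1 to KO4 and 0.76 and 0.59 in WT2 and WT3. Summed Trav UMIs gave ratios of 0.95, 1.17, 1.02, 1.20, 0.84 and 1.45, on both sides of 1. Of the constant genes, Trbc2 was lower in Tregs (-0.56, adjusted p = 0.000243), Trbc1 did not pass (-0.52, adjusted p = 0.164), and Trac did not pass (0.06, adjusted p = 0.618).

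**Figure D4:**
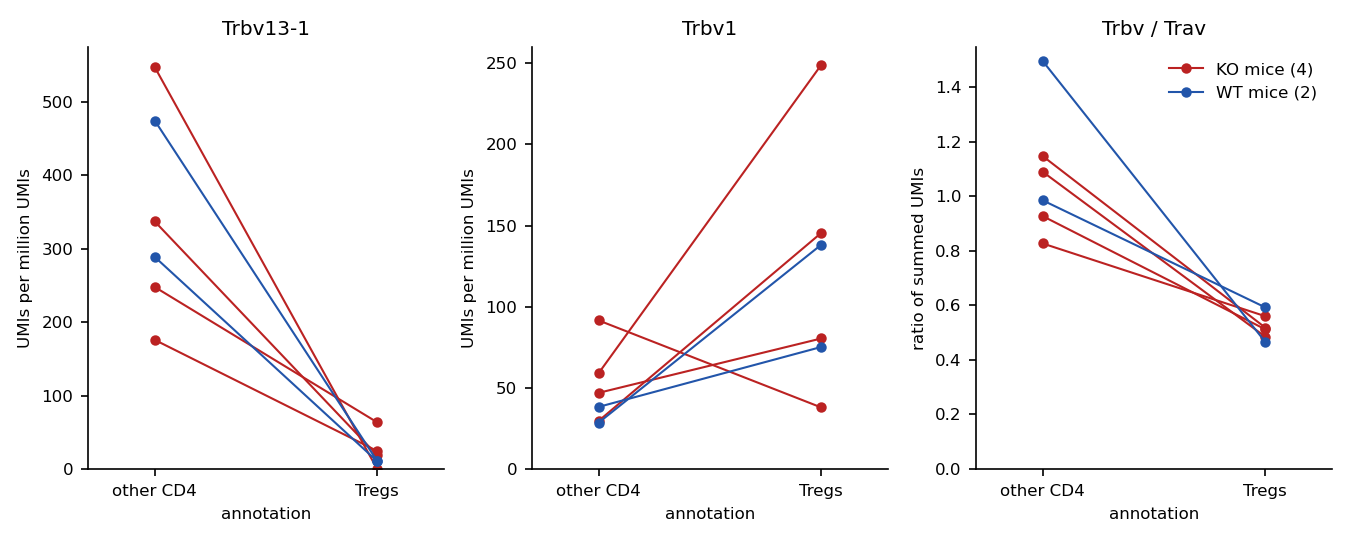
Levels of Trbv13-1 and Trbv1 (UMIs per 1000000 UMIs) and the ratio of summed Trbv to Trav UMIs (y axes) in Tregs and other CD4 T cells (x axis); each line is 1 mouse, red KO and blue WT, without WT1. Trbv13-1 falls in 6 of 6 mice to 63.68 CPM or less, and the ratio is lower in Tregs in each.

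The alpha segments that differed in Tregs went both ways. Trav4d-4 and its identical copy Trav4n-4 were higher in 6 of 6 mice (log2 fold change 1.68, SE 0.25, adjusted p = 3.65e-06), at 49.01, 13.42, 16.69, 40.22, 17.32 and 8.86 CPM in Tregs of KO1 to KO4, WT2 and WT3 against 5.72, 7.06, 2.80, 13.26, 6.26 and 5.40 CPM. Trav13-3 was higher too (3.57, adjusted p = 0.00231), in 4 of 6 mice, as were Trav4-2 (3.51, adjusted p = 0.000935), Trav8-2 (2.01, adjusted p = 0.0239), Trav9-4 (1.07, adjusted p = 0.0281) and Trav6-3 (1.28, adjusted p = 0.0464). Trav4-2 rested on KO2 and KO3, with 21.11 and 46.31 CPM in Tregs, and was at 0.00 CPM in Tregs of the other 4 mice. With DESeq2 its adjusted p was 0.852. Trav8-2 lost its call when KO1, KO2, KO3, WT2 or WT3 was left out. Trav9-4 lost it with DESeq2, with whole values only and without WT2. Trav6-3 lost it with DESeq2, with whole values only and without KO2 or WT2. In Tregs Trav6-3 stood at 90.12 CPM in KO1 and at 1.23 to 2.47 CPM in KO2 to KO4, WT2 and WT3.

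Lower in Tregs were Trav4d-3 and Trav4n-3 (-2.92, adjusted p = 7.97e-06), Trav6-7-dv9 (-1.44, adjusted p = 4.4e-05), Trav7-3 (-0.98, adjusted p = 0.0367; with copies joined 0.37, adjusted p = 0.599) and the identical copies Trav13d-2 and Trav13n-2 (-0.96, adjusted p = 0.0386). Trav7-3 also lost its call with DESeq2, with whole values only and without KO1, KO3 or WT2. With copies joined, 11 of 62 V genes passed, against 26.7% of all genes in that fit. Of these, 5 were Trav groups, all higher in Tregs, and the Trav4-3 group did not (-1.78, adjusted p = 0.078), nor did the Trav8-2 (0.62), Trav9-4 (0.09), Trav6-3 (0.96), Trav6-7 (-1.07) and Trav13-2 groups (-0.39), with adjusted p of 0.173 to 0.834. Trav1, the MAIT segment, was higher in Tregs by 1.19 (adjusted p = 0.0439), with 42.51 CPM in Tregs of WT3, 15.44 CPM in KO3 and at most 4.95 CPM in the other 4. Over all T cells, Trav1 usage was 0.12% to 0.72% in 6 mice and 2.39% in WT3. That call was lost with DESeq2 and without KO3 or WT2 (adjusted p up to 0.275).

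Cells annotated as gamma-delta T cells differed between mice in these transcripts. Pooled, the 219 cells gave 108 Trav and 135 Trbv UMIs, 152.8 and 191.0 CPM, where Th1 cells gave 1261.8 and 1331.1 CPM. By mouse, Trav stood at 184.2, 180.7, 22.8 and 389.0 CPM in KO1 to KO4 and at 81.9, 116.2 and 463.7 CPM in WT1 to WT3. The delta constant gene Trdc stood at 270.9, 316.2, 204.8 and 35.4 CPM and at 525.8, 309.8 and 0.0 CPM. In the 29 cells of WT3, highest in Trav, no Trdc was counted, which allows up to 40.9 CPM (3 UMIs, counting error only) and goes against the annotation. In the 11 cells of KO4, Trdc rested on 1 UMI, so its level there cannot be set against that of other cells. Pooled over mice, Trav1 with 24 UMIs and the Trav15-2 group with 22 were the first alpha segments, and the Trav15 members made up 23.15% of the Trav UMIs there. This pool does not describe each mouse. In WT1, 100% of the 3 cells with a Trav call were called Trav15-2. In WT3, where no Trdc was counted, 66.67% of the 3 cells with a Trav call were called Trav1. Most of the 219 cells came from WT1 (80) and WT2 (50), so genotypes were not compared. The 10 members with a dv ending made up 9.18% of the Trav UMIs of all T cells, mostly Trav21-dv12 and Trav14d-3-dv8 with 2180.0 and 2156.0 UMIs.

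A T cell can carry 2 rearranged alpha chains, since both alleles may be joined, while a second beta chain is usually prevented. Cells with 3 or more UMIs of each of 2 genes, copies joined, were counted among CD8 and CD4 T cells with the chain. For Trav the shares were 29.3%, 18.5%, 21.8% and 12.4% in KO1 to KO4 and 20%, 26.0% and 16.8% in WT1 to WT3. For Trbv they were 8.89%, 3.86%, 3.62% and 2.71% in KO1 to KO4, 8.70% and 2.13% in WT1 and WT2, and 24.4% in WT3. WT3 lay apart from the other 6 mice for Trbv only. In WT3 Trav was the chain with the lower share, and in the other 6 mice it was the higher.

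Nearly all such cells of WT3 carried 1 combination. Trbv15 and Trbv5 were found together in 191 of its 206 cells with 2 beta genes, that is in 57.0% of its Trbv15 cells (335) and 88.8% of its Trbv5 cells (215), and in 2 of 7075 T cells of the other mice with a Trbv. Of the 191 cells, 98.4% were CD8 T cells. Their median was 14 UMIs of Trbv15 and 5.5 of Trbv5, at a median depth of 7936 UMIs per cell against 5567 in cells with 1 of these genes. With at least 2 UMIs of both Trav9-2 and Trbv15 counted as carrying the pair whatever else the cell held, the WT3 pair rose from 28.4% to 262 of 774 cells (33.9%), a count added after these cells had been seen.

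Pairs of alpha segments recurred in the same way. Trav21 and Trav5-4 were together in 158 cells of KO3 (64.2% of its Trav21 cells), of which 100% were CD8, and in 2 of 5305 cells elsewhere. Trav10 and Trav12-2 were together in 75 cells of KO2 and in 1 of 6737 cells elsewhere, and Trav7-2 and Trav7-5 in 66 cells of WT2, 7.6% of them CD8, and in 2 of 7281 elsewhere. Trav1 and Trav3-3 were together in 19 cells of WT3, 79.2% of its 24 Trav1 cells, and in 0 of 7390 elsewhere. In these cases 1 mouse held nearly all cells with the combination. In KO1, the mouse with the highest share, the first combination was Trav12-2 with Trav13-2, in 24 cells and in 7 of 7713 elsewhere, and in WT2 Trav14-3 with Trav3-3 was found in 20 cells and in 8 of 7281 elsewhere. Droplets with 2 cells also give 2 genes of a chain, and how the authors treated them is not given in the sources used here.

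**Figure D5:**
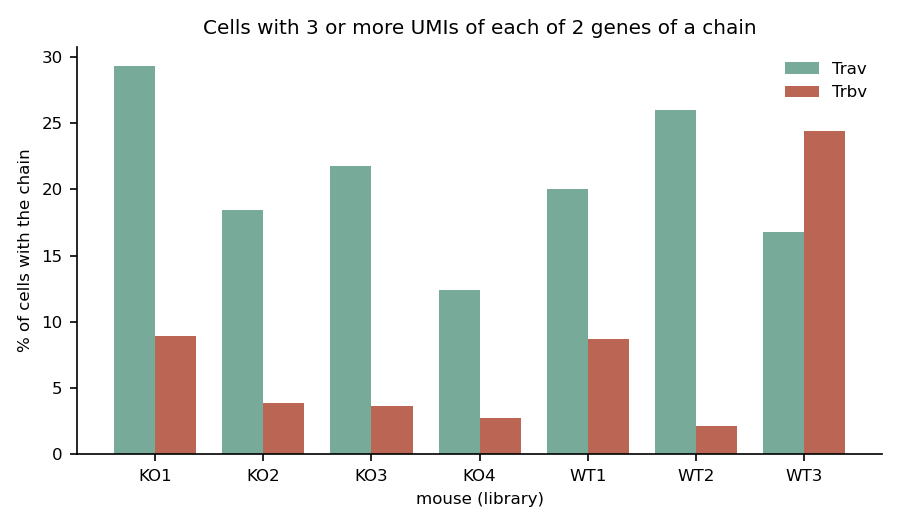
Percent of CD8 and CD4 T cells with the chain that had 3 or more UMIs of each of 2 Trav genes (green) or 2 Trbv genes (red), by mouse. Trav lies between 12.4% and 29.3%, and Trbv between 2.13% and 8.89% except in WT3, where it reaches 24.4%.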

How the data were processed

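Per the labels, cells were sorted from 7 mice and sequenced with a 5′ droplet kit. Per the submitters' processing notes, FastQC 0.11.5, STAR 2.7.10a and STARsolo were used with mm10. The deposited matrix holds expected counts (UMIs per gene and cell, some not whole, by over 1e-06). The deposited cell table holds counts of detected genes and mitochondrial and ribosomal percent, which were not used, with annotation and library. Filters on cells, the treatment of doublets and the clustering are not given in the sources used here. The number of columns of no known sample was 0.

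UMIs were summed per mouse and annotation, rounded, and tested in edgeR 4.0.16 (TMM, filterByExpr, robust quasi-likelihood, Benjamini-Hochberg over all genes tested, threshold 0.05), with 1 term per mouse for contrasts within mice. Libraries needed 20 cells. The scripts were tested on simulated data. Each library is 1 mouse, so p-values of the genotype tests reflect the spread between mice. Those of the fits with 1 term per mouse reflect how the difference within a mouse varied from mouse to mouse. DESeq2 1.42.0, no filter, whole values only, joined copies, leaving out each mouse, the replicate number as a block, and lineage by marker UMIs were the alternatives. Same-numbered KO and WT mice did not deviate together (correlations 0.061, -0.035 and -0.05), so the numbers were not taken as pairs. Named members are the 10 Trav and 10 Trbv with most UMIs, the leading genes of each mouse, up to 10 per direction past the threshold in each test, Trav11, Trav1 and dv members, and those around the threshold of 10 UMIs; Trbv29, Trbv23, Trbv13-3, Trbv30, the paired segments, the doubly carried segments and a few past the first 10 of a direction were named after their values were seen. Usage, pairs and sharing were given no test, because the members, the pairs and the lists were chosen with earlier results of these data known. V sequences and positions come from GENCODE M21, which gave a coding sequence for 128 of 136 members.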

Additional observations from a re-analysis of the deposited data

Results flagged for a closer look

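Among the 10 Trav and 10 Trbv rows with the most UMIs, 8 had a KO mouse far from the other 3 KO mice in usage. The rows were listed by UMIs pooled over all mice, and KO3 gave 27755 of the 74668 Trav UMIs. A gene high in KO3 alone can therefore enter the list for that reason. The chance rate of 1 in 20 groups does not apply to rows listed so, and whether chance gives these flags was not tested. In KO3, Trav7d-2 held 10.8%, Trav7-2 10.7%, Trav10n 7.43%, Trav8n-2 7.18% and Trav21-dv12 7.17% of the Trav UMIs of its T cells, each the highest of the 4. In KO4, Trav12-3 held 8.79% of the Trav UMIs and Trbv26 37.2% of the Trbv UMIs, also the highest. Trav14d-3-dv8 was lowest in KO1, with 0.6% of the Trav UMIs. Rows are given here one by one, and Trav7d-2 and Trav7-2 are near-identical copies. The WT group, with 3 mice, was not examined in this way.

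Cells annotated as NK cells, which are outside the comparisons, had a V gene signal above that of other cells that are not T cells. Over 909 cells, Trav reached 85.8 and Trbv 89.4 UMIs per 1000000 UMIs, against 3.3 to 14.7 Trav UMIs per 1000000 UMIs in the other annotations that are not T cells. After thinning to 2000 UMIs per cell, 9.89% of NK cells had a Trav and 9.54% a Trbv UMI. The T cell markers also summed to more in NK cells, 1182.5 CPM against 109.1 CPM in B cells, beside 1442.8 CPM of the NK cell markers. The source of the V gene signal was not tested. By mouse, Trav in NK cells ranged from 34.4 in KO1 to 267.7 UMIs per 1000000 UMIs in WT2. Trbv3 led the beta segments there with 18.6%, and the Trav15-1 group the alpha segments with 13.6%.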

How the results depend on the processing

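Between genotypes in all T cells, DESeq2 called 2 members (1.77%) and 32 genes (0.243%), no filter on low counts 3 genes, and the replicate block 4 genes and 0 members. Leaving out 1 mouse gave 0 to 2 genes, 2 without KO4. In CD8 T cells DESeq2 called 13 genes, no filter 22 genes (0.0911%) with 1 member (0.741%), and the replicate block 16 genes; leaving out 1 mouse gave 0 to 41 genes, 41 without WT3 and 2 without KO4. In CD4 T cells DESeq2 called 2 genes, no filter 80 genes (0.353%) with 5 members (3.68%), and the replicate block 27 genes (0.21%) with 4 members (3.33% of those tested; Trbv29 -3.43, adjusted p = 5.07e-05), though the numbers pair no mice; leaving out 1 mouse gave 0 to 2 genes, 2 without KO4. For the interaction, no filter gave 53 genes (0.207%) with 13 members (9.56%). Leaving out 1 mouse gave 0 to 11 genes (11 of 12624 without WT3, 4 of 12770 without KO1, 3 of 12305 without KO2, 1 without KO3) and 0 to 3 members. Between CD8 and CD4 T cells, 7 members (9.86%) passed with copies joined against 30.4% of genes, and 17 (14.9%) with lineage by marker UMIs against 30.9%. Without the block by mouse, 10 of 89 members (11.2%) and 1796 genes (15.9%) passed. Between Tregs and other CD4 T cells, 11 members (17.7%) and 26.7% of genes passed with copies joined, and 36 members (26.5%) and 12.9% of genes with no filter. Without the block by mouse, 3 members (6.38%) and 1639 genes (18.6%) passed. DESeq2 called 17 members (14.2%) and 1748 genes (13%). Joining copies turned Trav8-2 (CD8 over CD4) to 0.064 and Trav7-3 (Tregs over other CD4) to 0.373 on the log2 scale. Alternatives were counted for up to the first 10 members per direction past the threshold. Of these alternatives, 186 kept direction and call, 36 lost the call and 1 reversed between CD8 and CD4, and 133, 42 and 1 did so for Tregs. Trav4-2 and Trav7n-6, outside this count between CD8 and CD4, also turned in sign with copies joined. The causes were not tested.

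The mean highest Trav share in KO was 10.24% by rows, 20.21% as a share of cells and 16.81% with copies joined. Cells with 2 Trav genes averaged 30.26% over the 7 mice at 2 UMIs, 55.6% at 1 UMI and 20.68% at 3 UMIs; for Trbv the values were 12.79% at 2 UMIs and 29.24% at 1. With 2 UMIs of both genes whatever else the cell held, chosen after seeing the data, the leading pair stood at 11.77% in KO3, 8.00% in WT2 and 33.85% in WT3, and in KO2 Trav12-2 with Trbv13-2 led at 11.45%, above 7.97% for its first pair. The number of T cells (311 in WT1) limits the shares of single pairs.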
